A study of Marchantia polymorpha with 6 samples.

Results

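Autosomal coding genes annotated with several transcripts were taken from the authors' gene annotation of the liverwort Marchantia polymorpha as the genes on chromosomes 1 to 8 that have a coding sequence and at least 2 transcript models. They numbered 3008 of the 18134 autosomal coding genes (16.6%), and of 19441 annotated genes in all. The other 15126 autosomal coding genes had 1 transcript each and served for comparison. The series itself was an RNA-seq experiment on thalli, the flat haploid body of the plant, aged 14 days. It held 3 libraries of Mpmet-3, a mutant of MpMET, and 3 of wild-type Tak-1, a male line in whose genome the annotation is written. MpMET encodes the plant enzyme that keeps up DNA methylation at CG sites. The values used here are positions in the Tak-1 gene and transposable element annotations, MpTak1 v5.1 revision 2, so they describe gene models in 1 genome. How the mutant line was made, and whether it is a single clone, is not stated in the labels. Differences in expression between Mpmet-3 and wild type were not analysed here, and library depth is unknown.

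A plant gene can give several mRNAs when transcription starts or ends at different places or when the spliceosome, the machine that removes introns, chooses different splice sites, skips an exon or leaves an intron in. A donor site lies at the 5′ end of an intron and an acceptor site at its 3′ end. Leaving introns in is a common form of such splicing in land plants. A change within the coding sequence keeps the reading frame when its length is a multiple of 3, and an mRNA whose stop codon lies well before its last exon junction can be a target of nonsense-mediated decay, which removes faulty mRNAs.

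The 3008 genes carried 8016 transcripts, and most had few. Exactly 2 transcripts were annotated for 2084 genes (69.3%), 3 for 497 (16.5%), 4 for 218 (7.25%) and 5 or more for 209 (6.95%), up to 25. Genes with more transcripts were longer and had more introns. The median span of the representative transcript, the one with the longest coding part, was 4500 bp for genes of 2 transcripts, 5048 bp for 3, 5758 bp for 4 and 6927 bp for 5 or more. The median intron number was 5, 6, 7 and 9 in the same order. The share whose coding parts differed was 56.2%, 62.2%, 76.6% and 86.6%. A gene with more transcripts has more pairs that can differ, so the last series is set in part by the counting. It also offers more coding parts from which the longest is taken, so spans and intron numbers can rise by that choice. The representative was transcript 1 in 93.6% of the 3008 genes.

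Several transcripts were annotated more often for genes with more introns. Among the 4148 genes whose representative transcript had no intron, 2.05% ± 0.464 had several transcripts (mean of chromosomes ± SD, n = 8, as for every later percentage given with ±). The share was 10.1% ± 1.01 for genes with 1 intron, 17.9% ± 1.51 for 2 to 4, 27.0% ± 1.74 for 5 to 9, 32.3% ± 3.42 for 10 to 19 and 37.6% ± 7.01 for 20 or more. From 0 introns to 5 to 9 introns, the ranges of the 8 chromosomes did not overlap between neighbouring classes. The ranges of the 3 classes from 5 to 9 introns upward did. Counted per intron the order was turned round, with 12.9 additional transcripts per 100 introns in genes of 1 intron and 3.24 in genes of 20 or more. At a given intron number, coding length went along with the share mainly in genes of few introns. Sorted by coding length into 4 equal groups, genes without introns ran from 1.01% in the shortest group to 6.33% in the longest, and genes of 1 intron from 7.52% to 14.1%. Genes of 10 or more introns lay between 33.1% and 33.9% in the 3 groups that held them.

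**Figure D1:**
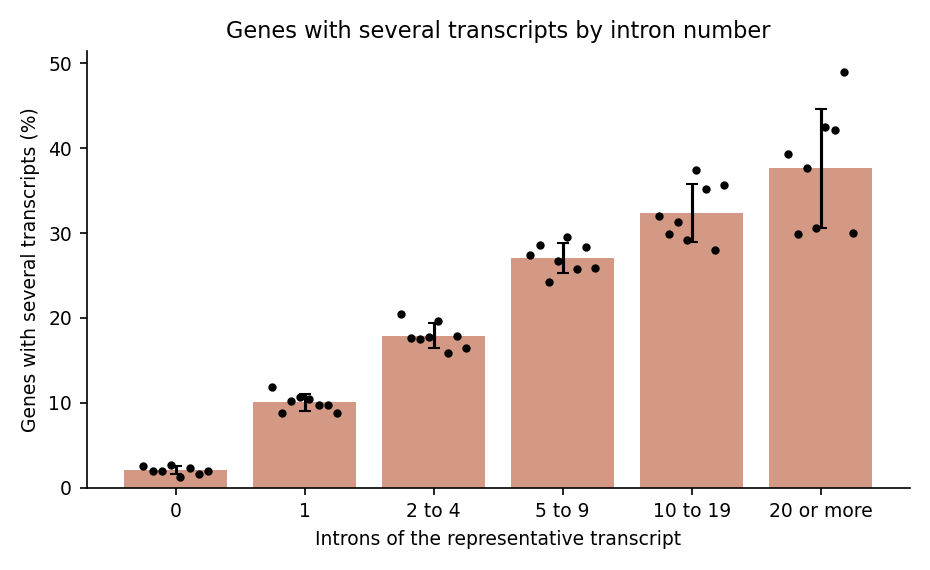
Percent of autosomal coding genes with several transcripts (y axis) by intron number of the representative transcript (x axis); bars are means of the 8 autosomes with SD and points are single chromosomes. The mean climbs from 2.05% in genes without introns to 37.6% in genes of 20 or more introns.

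Genes with several transcripts were longer in every part than genes with a single transcript. Their representative was the longest coding part of several, which can add to these differences. The median span of the representative transcript was 4776 ± 143 bp in genes with several transcripts and 2699 ± 219 bp in genes with 1 (mean of chromosome medians ± SD, n = 8), a difference of 2077 ± 179 bp. Their median intron number was 5.5 ± 0.535, against 1.88 ± 0.354. Median coding length was 1336 ± 68.7 bp, against 865 ± 48.9 bp. Median untranslated length, the exonic sequence on either side of the coding part, was 1172 ± 27.3 bp, against 875 ± 46.3 bp. Each of these differences was positive on 8 of 8 chromosomes (p = 0.00781 by an exact permutation of signs over chromosomes, 2-sided, the smallest that 8 chromosomes allow; adjusted p = 0.0182 over 14 tests). In genes of like intron number and coding length, the span still differed by 545 bp (adjusted exact permutation p = 0.0219). Coding length differed there by 30.0 bp (adjusted exact permutation p = 0.118). The groups were matched on coding length itself, so this value cannot decide whether it differs.

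The untranslated parts also carried more introns. An intron in untranslated sequence was present in the representative transcript of 47.8% ± 2.998 of genes with several transcripts and of 24.0% ± 1.31 of genes with 1 (SD, n = 8; higher on 8 of 8 chromosomes, adjusted exact permutation p = 0.0182). An intron in the 5′ untranslated sequence was found in 34.8% ± 3.35, against 16.7% ± 1.39, and in the 3′ untranslated sequence in 17.4% ± 2.28, against 8.53% ± 0.430, which were not tested separately. The typical intron was hardly longer. Its median length was 257 ± 3.41 bp, against 251 ± 6.70 bp (higher on 6 of 8 chromosomes, adjusted exact permutation p = 0.0497), and with means in place of medians the sign turned, with 330 bp in genes with several transcripts and 355 bp in genes with 1. The nearest annotated gene lay farther away, at a median of 1741 ± 218 bp, against 1416 ± 200.7 bp (SD, n = 8; farther on 7 of 8 chromosomes, adjusted exact permutation p = 0.0273). This call was lost among genes with at least 1 intron, where the difference was 247 bp (adjusted exact permutation p = 0.0795), and among genes with untranslated sequence at both ends, where it was 264 bp (adjusted exact permutation p = 0.0608).

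Transcripts of a gene differed in their introns in 2977 of the 3008 genes (98.97%), and in 2966 the introns differed also within the stretch that both transcripts of a pair spanned. First exon starts differed in 1413 genes (47.0%) and last exon ends in 1303 (43.3%). In 1127 genes (37.5%) all transcripts began and ended at the same base and differed in introns alone. Only 31 genes kept the same introns in all transcripts, and in 24 of these both the start and the end differed. These shares were even over the genome, with SDs over the 8 chromosomes of 2.21 percentage points for starts, 2.47 for ends and 3.42 for coding parts. Where the sizes of the shifts were concerned, the median distance between the outermost starts was 203 bp (quartiles 51 and 607 bp) and between the outermost ends 159 bp (quartiles 17.5 and 807.5 bp). A distance of 10 bp or less made up 9.06% of the differing starts and 19.1% of the differing ends, and over 1000 bp 15.8% and 21.1%. In the 835 genes that differed on both sides, the median distance was 153 ± 29.5 bp between starts and 106.5 ± 38.8 bp between ends, which did not pass the test (difference 46.8 ± 53.5 bp, SD, n = 8; larger between starts on 7 of 8 chromosomes, adjusted exact permutation p = 0.0638).

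The coding part differed between transcripts in 1829 genes (60.8%). In another 1177 genes (39.1%) the difference lay in untranslated sequence alone. A pair of identical models occurred in 3 genes, and the 2 of these with a single coding part are in neither count. Those 2 also held transcripts that differed in untranslated sequence alone. Genes whose transcripts shared both ends had differing coding parts most often, in 755 of 1127 (66.4% ± 5.14, SD of 8 chromosomes). The share was 58.5% ± 3.98 where start and end differed, 59.2% ± 7.88 where the end alone differed and 52.8% ± 5.19 where the start alone differed. These shares overlapped over chromosomes and were not tested. Across all transcripts, a median of 13.9% of the exonic bases of a gene was not shared by all of its transcripts (quartiles 5.03% and 29.7%), and 2594 genes (86.2%) kept at least 1 intron common to all transcripts.

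**Figure D2:**
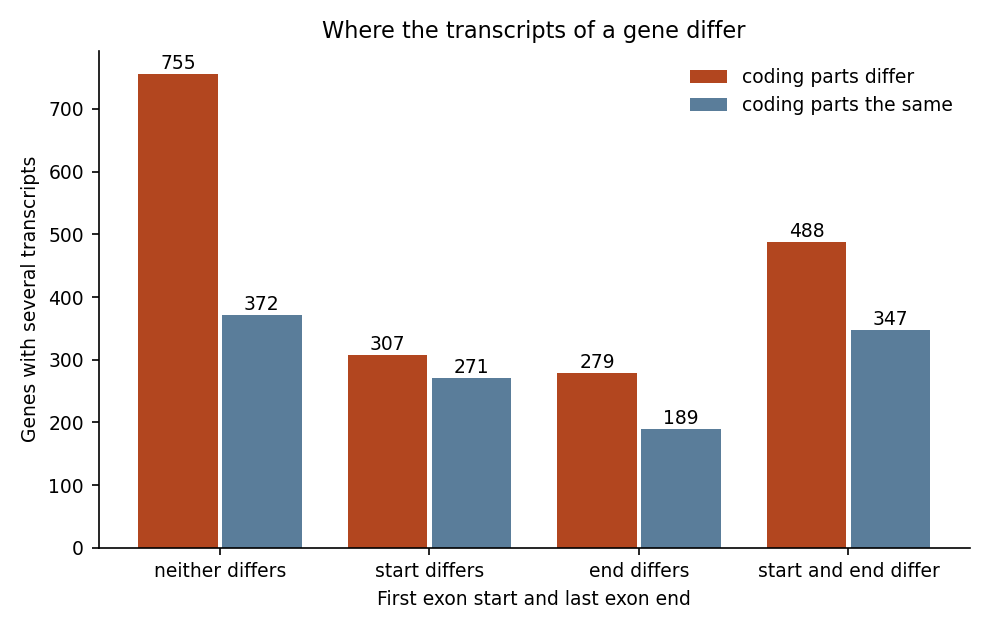
Number of genes with several transcripts (y axis) by whether first exon starts and last exon ends differ between transcripts (x axis), with genes whose coding parts differ in the left bar of each pair. Where neither end differs, 755 genes differ in coding parts and 372 do not.

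Sorted by the position of start and stop codon, 723 of the 3008 genes (24.0%) had coding parts with different starts and the same stop, 596 (19.8%) the same start and different stops, and 99 (3.29%) differed in both. Coding parts of these genes can differ between the ends as well. In 411 genes (13.7%) start and stop were the same and the coding parts differed between them. The shortest coding part was a median of 89.5% of the longest (quartiles 78.3% and 96.9%). It reached at least 95% in 594 genes (32.5%) and stayed under 50% in 26 (1.42%). Most of these genes had exactly 2 coding parts (1446 of 1829). A length difference of exactly 3 bp, a single codon, was the whole difference between longest and shortest in 106 genes (5.80%). All coding bases shared with the representative transcript were read in the same frame in 1547 of the 1829 genes (84.6%). In 282 genes (15.3% ± 1.297, SD of 8 chromosomes) some shared bases were read in another frame, over a median of 48 bp.

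The differences were sorted into 5256 events in 2924 genes, and the other 84 genes held none of these kinds. Each kind and exact stretch was counted a single time per gene, and overlapping stretches were counted apart. An exon or intron with a shifted splice site can therefore enter more than once, also in the counts and shares below. In Mp2g13330, for example, retained introns of 130 and 183 bp began at the same base. An intron left in by another transcript came first, with 1300 events in 950 genes (31.4% ± 2.99 of members, SD of 8 chromosomes). Shifts of the acceptor site followed with 1093 events in 926 genes (30.9% ± 2.14), and shifts of the donor site with 922 in 804 (26.8% ± 2.49). Skipped exons numbered 717 in 553 genes (18.3% ± 1.86), of which 664 concerned a single exon. Alternative first exons that share no base were found in 544 genes (18.1% ± 1.72) and alternative last exons in 382 (12.9% ± 1.74). Retained introns and acceptor shifts did not differ in frequency beyond the spread over chromosomes, and neither did skipped and alternative first exons.

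The kinds of event lay in different parts of the gene. An event was called coding when the differing bases fell within the coding range of both transcripts of a pair, untranslated when they fell outside both, and mixed otherwise. Of the retained introns 109 were coding, 387 mixed and 804 untranslated. Of the acceptor shifts 429 were coding, 294 mixed and 370 untranslated, and of the donor shifts 183, 270 and 469 in the same order. Skipped exons were coding in 315 cases, mixed in 219 and untranslated in 183. Among untranslated events on a definite side of all coding parts, 372 donor shifts lay in the 5′ part and 83 in the 3′ part (81.8% in the 5′ part). The 5′ share was lower for the other kinds, with 59.9% for acceptor shifts, 62.3% for skipped exons and 55.5% for retained introns. These shares take no account of the introns annotated on each side, 2422 in 5′ and 1258 in 3′ untranslated sequence. Set against the introns annotated in each part, 17.3% ± 3.58 of the 2422 introns in 5′ untranslated sequence were retained in another transcript, 2.36% ± 0.409 of the 22745 in the coding range and 26.9% ± 3.92 of the 1258 in 3′ untranslated sequence (SD of 8 chromosomes). Here the coding range took in every intron on no definite side of all coding parts, with 536 retained, against the 109 called coding above. The range over chromosomes in the coding range (1.79% to 2.91%) lay apart from both others (13.1% to 23.4% and 19.8% to 33.8%), which overlapped each other. Retained introns were shorter than the other introns of all genes with several transcripts. Chromosome medians were 230 ± 11.6 bp against 255.5 ± 3.93 bp, with differences of −45.5 to −9 bp on the 8 chromosomes. This difference in length was not tested, and the introns were not matched for place. Introns had a median of 344 bp in 5′ untranslated sequence, 246 bp in the coding range and 280 bp in 3′ untranslated sequence.

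Sizes in multiples of 3 prevailed among coding events. Of the donor shifts, acceptor shifts and skipped exons, 70.7% ± 4.06 had such a size when coding and 34.6% ± 7.599 when untranslated (mean of chromosomes ± SD, n = 8), a difference of 36.1 ± 9.43 percentage points, positive on 8 of 8 chromosomes (adjusted exact permutation p = 0.0182). Chromosome values ran from 66.2% to 76.0% for coding events and from 24.3% to 50% for untranslated ones. By kind, 72.7% of coding acceptor shifts, 62.8% of coding donor shifts and 72.1% of coding skipped exons were multiples of 3, against 39.5%, 31.1% and 33.3% of the untranslated ones. Retained introns showed 67.9% when coding and 36.3% when untranslated. An event that breaks the frame can move the annotated start or stop and so fall into the mixed class, where 23.8% to 30.7% of the events of these 4 kinds were multiples of 3. With mixed events counted as coding, an alternative added after the data were seen, the share was 50.1% against 34.6%, a difference of 15.5 percentage points (adjusted exact permutation p = 0.0273).

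The acceptor shifts held a sharp peak at 3 bp. This distance made up 124 of the 429 coding acceptor shifts (27.8% ± 7.83, SD of 8 chromosomes) and 31 of the 370 untranslated ones (7.95% ± 4.09). Distances of 6, 9 and 12 bp followed in the coding shifts with 36, 26 and 17 cases, while 4 and 5 bp had 12 each. In untranslated sequence 4 and 5 bp had 14 and 21 cases. Tandem acceptor sites that lie 3 bases apart are known from animals and plants and add or drop a single amino acid. Coding donor shifts held 6 cases of 3 bp among 183, and none of the 469 untranslated donor shifts had this size. Their most frequent size up to 12 bp was 4 bp, with 10 cases. The coding acceptor shifts were also the smallest, with a median of 9 bp, against 53.5 bp when untranslated. Coding and untranslated donor shifts had medians of 34 and 135 bp.

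**Figure D3:**
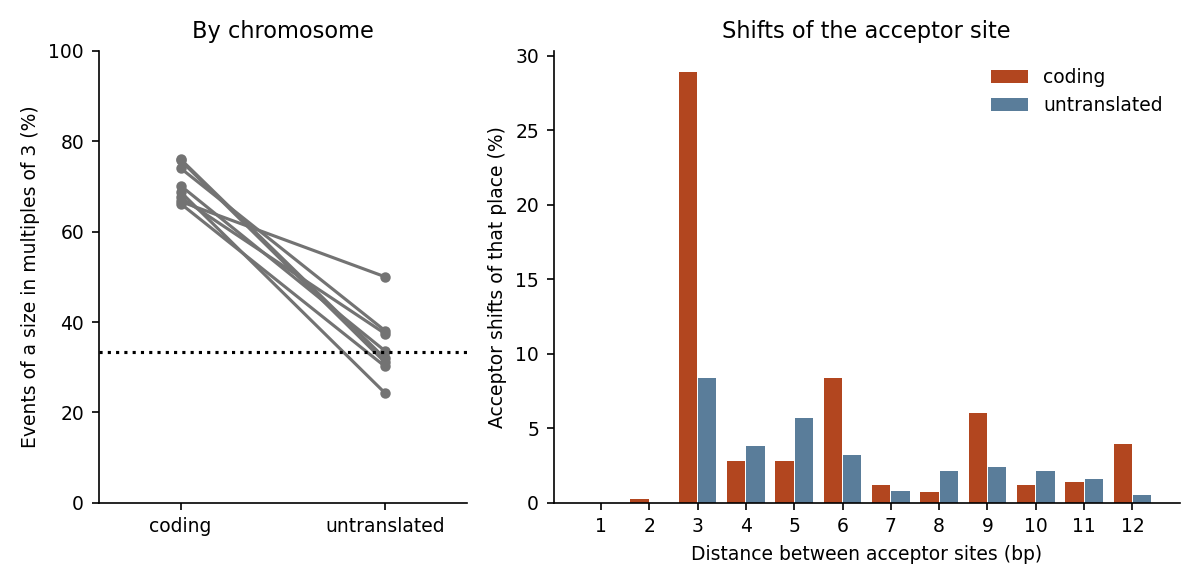
Left, percent of donor shifts, acceptor shifts and skipped exons whose size is a multiple of 3 for coding and untranslated events, 1 line per autosome, with a dotted line where sizes spread evenly over the remainders would lie; right, distribution of acceptor shifts of 1 to 12 bp as percent of all shifts of that place. Coding values lie between 66.2% and 76.0%, and 124 coding shifts measure 3 bp.

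Stop codons that lie more than 50 nt before the last exon junction, the usual mark of a candidate for nonsense-mediated decay, were most frequent in the additional transcripts. They were found in 22.0% ± 2.43 of the 5008 other transcripts of these genes, in 13.2% ± 2.40 of the 3008 representative ones and in 6.54% ± 0.580 of the transcripts of single-transcript genes (SD of 8 chromosomes). The 3 ranges over chromosomes, 18.2% to 25.1%, 10.4% to 18.03% and 5.23% to 7.06%, did not overlap. The representative was chosen for its long coding part, so its share is set in part by that choice. Among transcripts of 5 to 9 introns the values were 19.4% ± 4.51, 8.94% ± 2.57 and 6.22% ± 0.948 in the same order, and there the ranges of the last 2 overlapped. At least 1 such transcript was present in 745 genes (24.8%), some but not all transcripts were of this kind in 492 (16.4%), and all were in 253 (8.41%). These differences were not tested, and whether the transcripts are degraded was not measured.

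Transposable elements were somewhat scarcer in and before genes with several transcripts. At least 1 bp of element lay within 1 kb upstream of 11.3% ± 2.77 of them and of 14.6% ± 1.89 of single-transcript genes, a difference of −3.32 ± 2.12 percentage points (SD, n = 8; lower on 7 of 8 chromosomes, adjusted exact permutation p = 0.0273). In exons the shares were 8.24% ± 1.64 and 11.7% ± 2.61 (lower on 7 of 8 chromosomes, adjusted exact permutation p = 0.0328). Within 1 kb downstream they were 14.7% ± 1.21 and 15.8% ± 1.80, which did not pass (adjusted exact permutation p = 0.227). Genes made up to at least 50% of element sequence in their exons were rarer among genes with several transcripts, 26 of 3008 (0.864%) against 577 of 15126 (3.81%). Without these genes neither the upstream difference (−1.20 percentage points, adjusted exact permutation p = 0.149) nor the exonic one (−0.776 percentage points, adjusted exact permutation p = 0.406) passed the test.

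In introns the order was the other way, and it turned when genes of like intron number were compared. Element sequence was present in the introns of 11.2% ± 1.71 of genes with several transcripts and of 9.12% ± 1.01 of genes with 1 (SD, n = 8; higher on 7 of 8 chromosomes, adjusted exact permutation p = 0.0328). At like intron number and coding length the sign turned, with 11.2% against 13.4%, a difference of −2.18 percentage points (adjusted exact permutation p = 0.0410). Among genes with at least 1 intron it was −0.939 percentage points (adjusted exact permutation p = 0.258).

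**Figure D4:**
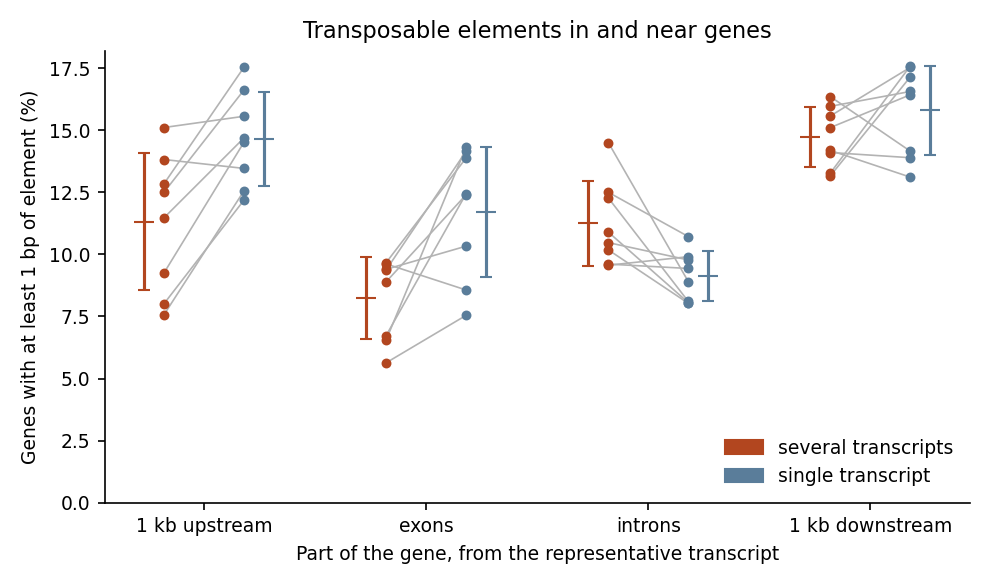
Percent of genes with at least 1 bp of transposable element (y axis) in each part of the gene (x axis), genes with several transcripts left and single-transcript genes right; points are the 8 autosomes joined by lines, and bars are means with SD. The means are 11.3% and 14.6% upstream, 8.24% and 11.7% in exons, and 11.2% and 9.12% in introns.

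Within genes with several transcripts, the exonic bases that vary were not measurably richer in elements than those all transcripts share. Elements covered 2.23% ± 1.44 of the bases not shared by all transcripts and 1.63% ± 0.917 of the shared bases (SD, n = 8; higher on 6 of 8 chromosomes, adjusted exact permutation p = 0.126). The element bases of the varying sequence lay in 147 genes (4.89%) and amounted to 41809 of 1889778 bp. Elements of unknown class made up 35.2% of them, Mutator-type DNA transposons 26.3% and CACTA-type DNA transposons 16.8%. In the shared bases the same classes came first, with 44.5%, 24.7% and 18.9%. Of the 1300 retained introns 42 (3.23%) contained element sequence, against 826 of the 25125 other introns (3.29%).

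The 5 genes with most element sequence in varying exonic bases differed in where that sequence lay. In Mp6g13660 (chromosome 6, 15019803 to 15026526, plus strand) the last exon of transcript 1 ran 3772 bp farther than the end of transcript 2, and 1666 bp of it lay in 3 copies of the Gypsy-type LTR family TE_00000699_INT. Its coding parts measured 939 and 504 bp. In Mp5g07560, which shares its number with MpPP1I3 (chromosome 5, 8178875 to 8187164, minus strand), 1133 bp at the 3′ end of transcripts 1 and 2 lay in a hAT-type copy of 4636 bp, family TE_00000608, and transcript 3 ended 2952 bp earlier, outside it. Mp2g13730 (chromosome 2, 14470971 to 14474923, minus strand) had 1 coding part of 927 bp in its 4 transcripts and 1348 bp of element sequence in the varying part of its 3′ untranslated sequence. In Mp5g10730 (chromosome 5, 11928823 to 11937397, minus strand) the transcripts ended 6258 bp apart. Each end held a copy of the CACTA-type family TE_00000383 and a copy of the unclassified family TE_00000189. Its 2 coding parts differed, though both measured 1005 bp. Mp6g03870 (chromosome 6, 4269505 to 4277678, minus strand) lay largely in copies of the Mutator-type family TE_00000868, with 1506 bp in varying and 2637 bp in shared exonic bases.

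**Figure D5:**
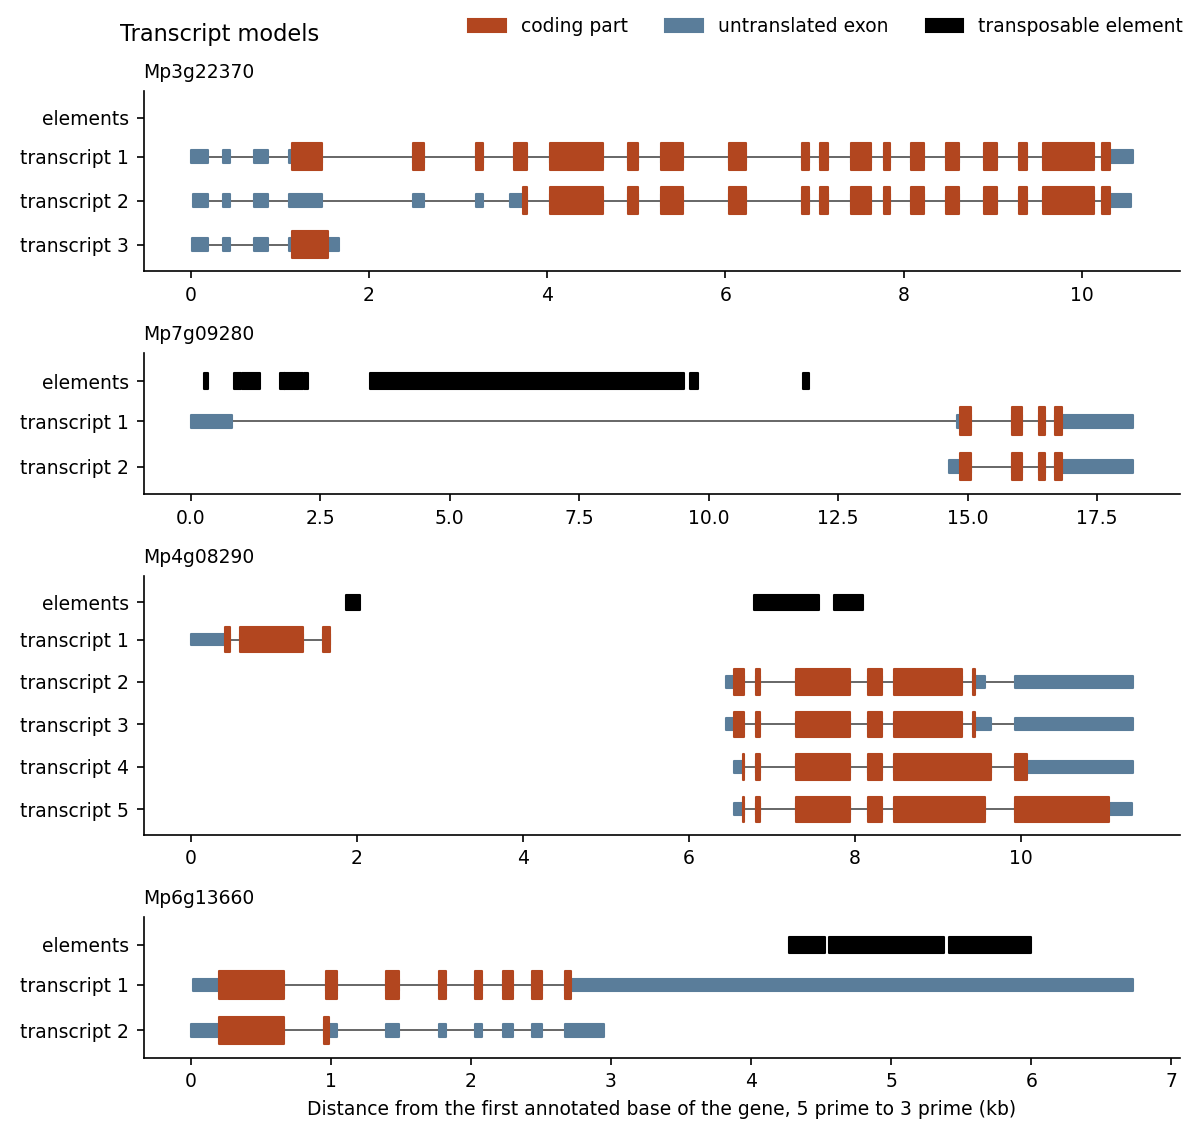
Transcript models of 4 genes, each first by a rule on coding length ratio, start distance, end distance or element sequence in varying exons; x axis, distance from the first annotated base in kb, thick boxes coding, thin boxes untranslated, black boxes elements. In Mp7g09280 both transcripts share their coding part and start 14634 bp apart, and in Mp4g08290 transcript 1 overlaps none of the others.

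The 5 most distant pairs of starts lay 8500 to 14634 bp apart. Mp7g09280 (chromosome 7, 10388036 to 10406221, plus strand) had starts 14634 bp apart and a single coding part of 642 bp. The first intron of its longer transcript spanned 13989 bp, of which 7348 bp (52.5%) was element sequence. Mp6g01160 followed with 10279 bp between starts, Mp3g15150 with 9872 bp, Mp5g13570 with 9064 bp and Mp3g15840 with 8500 bp. In these 4 the coding part differed too, for example 2919 and 2844 bp in Mp6g01160. The ends lay farthest apart in Mp4g08290 with 9671 bp, a gene described further on. Mp7g07580 had 9083 bp between ends, Mp3g22370 8908 bp, Mp5g12920 8349 bp and Mp5g05490 7641 bp. Of these only Mp5g05490 had a single coding part, of 270 bp. Mp7g07580, Mp5g12920 and Mp5g05490 overlapped another annotated gene, as did Mp6g01160 and Mp5g13570 among the distant starts. The other genes named in this paragraph did not. The longer coding part of Mp7g07580, of 9106 bp, is no multiple of 3. Whether the overlaps bear on these distances was not tested.

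The ratio of longest to shortest coding length was largest in Mp3g22370, Mp3g00930 and Mp1g17230. In Mp3g22370 (chromosome 3, 23497503 to 23508070, minus strand) transcripts 1 and 2 had 21 exons and coding lengths of 3483 and 2844 bp, while transcript 3 had 4 exons and 396 bp, a ratio of 8.80 between longest and shortest. Mp3g00930, which shares its number with MpBK1 (chromosome 3, 1139715 to 1148932, plus strand), paired a transcript of 23 exons and 4320 coding bp with one of 2 exons and 708 bp at its 3′ end. Mp1g17230 (chromosome 1, 17586182 to 17594924, plus strand) paired 16 exons with an unspliced transcript of 5437 bp that held 369 coding bp, against 2196 bp. The ratios of the other 7 genes of this rule lay between 3.13 and 5.41. They were Mp2g00090, Mp2g22920, Mp4g01100 (the number of MpGCS1), Mp4g08290, Mp4g00640, Mp3g15730 (a receptor-like kinase, named MpRLK-Pelle_URK-Pp-1b) and Mp5g16020 (the number of MpSR4).

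The genes with most transcripts mostly held fewer events than transcripts. Mp4g18000 (chromosome 4, 20296575 to 20307761, minus strand) had 25 transcripts of 21 or 22 exons, all with the same start and end, and 17 coding parts of 4650 to 4794 bp. The transcripts differed by 1 retained intron, 6 acceptor shifts, 3 donor shifts and 2 skipped exons. The retained intron and the donor shift of 524 bp lay in untranslated sequence. Some of the stretches overlapped, such as acceptor shifts of 3, 15 and 18 bp. Mp6g12440 (chromosome 6, 13596168 to 13603165, plus strand) also had 25 transcripts, each with a coding part of its own, of 1461 to 1821 bp. Mp3g02140 had 24 transcripts with 8 coding parts, Mp7g15450 22 with 15 and Mp1g01390 17 with 5. Mp5g18160 (chromosome 5, 19216405 to 19222494, minus strand) went the other way. Its 15 transcripts shared 1 coding part of 489 bp and differed in untranslated sequence, and in 12 of them the stop lay over 50 nt before the last junction. The other 4 of the 10 genes, Mp4g06830, Mp7g16170, Mp1g27810 and Mp4g03850, had 14 or 15 transcripts and 4 to 10 coding parts.

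Symbols were given to genes by locus number and gene length from a table of the female Tak-2 genome, so they rest on position in the numbering and not on sequence. A symbol was held by 18.2% ± 3.33 of the paired genes with several transcripts and by 17.3% ± 2.12 of the paired genes with 1 (SD of 8 chromosomes), with overlapping ranges. The shares below are to be read against the 16.6% of all autosomal coding genes and against the shares by intron number given above. No list was tested.

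Of the 8 matched genes of light signalling, with a median of 8 introns, 4 had several transcripts, with differing coding parts in each. In MpFKF (Mp3g14360), which encodes a blue-light receptor of the F-box type, the transcripts measured 1908 and 1467 coding bp, and the shorter held an additional exon of 130 bp and a later start codon. MpCRY (Mp2g17590), the cryptochrome, had coding lengths of 2148 and 2091 bp and an acceptor shift of 161 bp. MpUVR8 (Mp2g11590), the receptor for ultraviolet-B light, had 1356 and 1317 bp, a donor shift of 39 bp. MpCOP1 (Mp5g12010), the ubiquitin ligase that represses light responses, had 2067 and 2064 bp, from an acceptor shift of 3 bp. Of the 9 matched genes of auxin signalling and synthesis, with a median of 4 introns, none had several transcripts. Of 9 in jasmonate, abscisic acid and related signalling only MpABI5B (Mp2g22820), a bZIP transcription factor of the abscisic acid response, had, with coding lengths of 1467 and 1458 bp from a donor shift of 9 bp.

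In the list of DNA methylation 5 of 8 matched genes had several transcripts, at a median of 14.5 introns over the list. The 3 transcripts of MpMET (Mp6g18180), the gene mutated in Mpmet-3, differed by 361 bp in their starts and 1150 bp in their ends and shared a single coding part. The coding parts differed in the other 4, MpDRMa with 4 coding parts and MpDRMb, MpCMTa and MpCMTb with 2 each. Of the 10 matched small RNA genes, with a median of 15.5 introns, 2 had several transcripts, MpSE (Mp1g23090), named for a factor of microRNA processing in Arabidopsis, with 5 transcripts and 2 coding parts, and MpDCL3 (Mp6g09830), a Dicer-type nuclease, with 2 that shared a coding part.

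Several transcripts were annotated for 8 of 149 peroxidases (5.37%), 8 of 117 cytochromes P450 (6.84%) and 11 of 83 glycosyltransferases (13.3%). The coding part differed in 1, 3 and 2 of these. The median intron number of these families was 3, 2 and 1 in the same order. Receptor-like kinases, also with a median of 1 intron, reached 19 of 83 (22.9%), and 14 of the 19 differed in coding parts. Among transcription factors the shares were 12 of 46 for the bHLH family, 7 of 23 for C2H2 zinc fingers, 5 of 12 for bZIP, 4 of 18 for R2R3-MYB, 3 of 14 for WRKY, 2 of 9 for NAC and 1 of 18 for ERF. Coding parts differed in 24 of these 34 genes. The median intron number of the families was 4, 4, 4, 2, 4, 3 and 0 in the order named. MpWRKY7 (Mp3g17660) gave a skipped exon of 117 bp with coding lengths of 1905 and 1788 bp, and MpERF21 (Mp5g22160) a retained intron of 88 bp with 1668 and 1332 bp. MpBZIP8 (Mp2g13330) had 8 transcripts and 8 coding parts of 1014 to 1512 bp, while the Tak-2 table lists 1 protein for it.

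The Tak-2 table, made for a female plant, lists proteins per gene and so gives a second view of the coding parts. Of the 3008 genes 2751 were paired by number and a length within 5%. The number of proteins listed for Tak-2 equalled the number of different coding parts in Tak-1 in 2642 of them (96.0%). At least 2 proteins were listed for 1607 of 1682 paired genes whose coding parts differed (95.5%) and for 1 of 1069 whose coding parts were the same. Of the 13474 paired single-transcript genes 8 had at least 2 proteins (0.0594%). No source used here states whether the Tak-2 models were made independently of those of Tak-1, so the match is no separate evidence for the transcripts.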

How the data were processed

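Polyadenylated RNA of thalli was sequenced from directional libraries, per the labels' protocols. The submitters' processing notes name Trim Galore and STAR. The authors deposited 2 annotations, whose values are genome positions in bp counted from 1. How transcripts were modelled: not given in the sources used here. Neither file has library values, so the replicates of the 2 genotypes entered no test, and no depth is given. The genes and lists were chosen with earlier results of these data known.

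Exons that touch were joined. Measures come from 1 representative transcript per gene, with the longest coding part, then the longest exonic length, then the lowest number, since the union over transcripts grows with their number. Elements were merged before bp were counted. Medians or shares were taken per autosome, and differences were tested by exact 2-sided sign-flip permutation over 8 chromosomes with Benjamini-Hochberg adjustment over 14 tests, at a threshold of 0.05. Chromosomes of 1 genome are not plants, so these p-values speak only of the spread between chromosomes. Events were compared between all pairs of transcripts of a gene. Of 23142 transcripts 35 had a coding length that is no multiple of 3, and 3 introns of genes with several transcripts were under 20 bp, all kept. Named genes were the 10 with most transcripts, the 10 with the largest coding length ratio, the 5 with the largest start and end distances, the 5 with most element bp in varying exons, and list members. Symbols came from a table for MpTak2 v7.1, by locus number and a gene length within 5%. The scripts were tested on toy gene models and simulated lengths. Python 3.11.15, numpy 2.4.6 and matplotlib 3.10.9 were used. Alternatives were other representatives, other gene sets, strata of intron number and coding length, other flanks, means and leaving out chromosomes.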

Additional observations from a re-analysis of the deposited data

Results flagged for a closer look

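Chromosome 1 stood apart in its share of genes with several transcripts. The share was 19.5% there, against 15.6% to 16.5% on the other 7 autosomes, and the gap to the nearest of them was 0.772 of the whole range of 8 values. A gap past the limit that singled it out arises by chance in about 1 of 20 groups, and 22 groups of 8 chromosome values were examined. Coding genes of chromosome 1 had a mean of 5.15 introns, against 3.70 to 4.49 on the others, and 19.6% of them had no intron, against 21.5% to 26.6%. Within classes of intron number, chromosome 1 was the highest of 8 for genes of 1 intron (11.9%) and of 2 to 4 introns (20.5%), and 3 chromosomes were higher for 5 to 9 (27.4%), 10 to 19 (32.0%) and 20 or more introns (39.4%). The part of intron number in the difference was not tested.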

How the results depend on the processing

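Of 106 alternatives other than leaving out a chromosome, 76 kept the direction and the side of the threshold (for shares, moved by less than 1 SD). Differences below are for genes with several transcripts minus genes with 1, and the causes were not tested. Median intron length turned to −4.28 bp with the union of all exons and −25.1 bp with means. It lost its call at 6.16 bp with the lowest-numbered transcript, 5.63 bp in genes with at least 1 intron, 3.25 bp without genes of 50% or more element sequence in exons, 5.19 bp without genes overlapping another and 2.97 bp in genes with untranslated sequence at both ends. Elements in introns turned to −0.939 percentage points with at least 1 intron and −2.18 in strata of intron number and coding length, and lost the call at 2.13 with the union and 1.90 without overlapping genes. Elements in exons lost it at −2.72 with the union, −0.776 without the element-rich genes and −2.52 with both untranslated ends. Upstream elements lost it at −2.58 in strata, −1.20 without the element-rich genes, −2.50 with both untranslated ends and −1.04 within 2000 bp. Downstream elements turned to 0.697 without the element-rich genes and gained a call at −2.15 within 500 bp. The gap between genes lost its call at 247 bp with at least 1 intron and 264 bp with both untranslated ends. Coding length lost its call at 30.0 bp in strata that were themselves formed by coding length. Starts against ends gained one at 56 bp without overlapping genes. Counting end differences over 10 bp, and over 50 bp, starts differed in 42.4% and 35.1%, ends in 34.8% and 26.9%, and neither in 42.7% and 49.9%.

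Leaving out 1 chromosome at a time reversed no difference, and with 7 chromosomes the smallest possible p is 0.0156. The call was lost in 6 of 8 such fits for median intron length (4.14 to 6.71 bp), 6 for elements in exons (−4.11 to −2.86) and 6 for elements in introns (1.64 to 2.49), in 3 for upstream elements (−3.84 to −3.04) and in 4 for the gap (266 to 372 bp), and gained in 1 for starts against ends (36.3 to 60.5 bp). The placing of events as coding in at least 1 transcript, retained introns alone, and bases outside every coding part were added after the data were seen.

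No paired analysis was possible because the files have no library values, so replicate numbers shared by the 2 genotypes entered no fit.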

Other observations

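Of the 22 genes with 10 or more transcripts in Tak-1, 12 were paired with Tak-2 by number and length, and in 0 of these 12 did the number of Tak-2 proteins equal that of the Tak-1 coding parts. The table lists 1 or 2 proteins for each of these 12, which all had at least 4 coding parts. Among the genes not paired by length, the numbers were equal in Mp5g18160 (1) and in Mp3g22400, Mp5g02270 and Mp4g13050 (2 each). They were unequal in the others. The share with equal numbers was 95.8% for paired genes of 2 coding parts, 91.9% for 3, 84.8% for 4 and 61.8% for 5 or more. Among these 22 genes, Mp2g02900 (Mp1R-MYB14) had 11 transcripts with 11 coding parts and 1 protein listed for Tak-2, and Mp7g05970 had 14 with 14 and also 1 protein. Both were picked out after their values were seen. Coding parts differed in 21 of the 22, and the median intron number was 12.

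In 1 gene the transcripts of a pair overlapped nowhere. Mp4g08290 (chromosome 4, 9154548 to 9165893, plus strand) held transcript 1 from 9154548 to 9156222, with a coding length of 895 bp, which is no multiple of 3, and transcripts 2 to 5 from 9160999 onward, with coding lengths of 1815 to 3096 bp. Element sequence covered 792 bp of the gene's span outside its exons and 509 bp of exonic bases not shared by all transcripts. Between transcript 1 and the others lay only the element from 1871 to 2036 bp after the gene's first base. The rest of the 792 bp lay in introns of transcripts 2 to 5. This gene model joins separate stretches under 1 identifier, and reads counted for the gene would be summed over both. In 14 genes (0.465%) a pair of transcripts shared no coding base.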
